A study of Homo sapiens with 4 samples.

Results

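Matrix proteases and their inhibitors were followed as 9 genes in BEAS2B cells, an immortalized, virus-transformed line of human bronchial epithelial cells. The genes were taken by symbol: the ADAMTS proteases *ADAMTS5* and *ADAMTS1*, the matrix metalloproteases *MMP2* and *MMP14*, the inhibitors *TIMP1*, *TIMP2* and *TIMP3*, and the plasminogen activator genes *PLAU* and *PLAUR*. All 9 were found among the 16708 genes listed in at least 1 library, and all 9 had the mean of at least 0.5 RPKM that a gene needed for the test. RPKM scales the reads of a gene to its length and to the reads of the library. mRNA was measured in 4 libraries: 2 of sh-QKI cells, which stably express 1 retroviral shRNA against all isoforms of the RNA-binding protein QKI, and 2 of sh-Ctrl cells, which express a control shRNA against luciferase. Both groups hold a replicate 1 and a replicate 2, and no source used here describes them as separate cultures, so p-values measure only the spread between libraries, which may be technical. The genes were chosen by role and with their RPKM in sh-QKI and sh-Ctrl cells known, *ADAMTS5* for its higher values in sh-QKI cells. For the 9 genes this comparison is therefore a description, with fitted log2 fold changes and standard errors but no p-values, and calls are given only as counts.

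Matrix proteases cut the proteins around cells. ADAMTS proteases and MMPs are zinc enzymes made as inactive proforms, and TIMPs are small secreted proteins that block their active site. Urokinase, the product of *PLAU*, turns plasminogen into plasmin while held at the cell surface by its receptor, the product of *PLAUR*. In airway epithelium these enzymes are known for roles in cell migration and in repair of the basement membrane.

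QKI recognizes ACTAAC and ACTAAT (U for T in RNA), so these letters were searched on the mRNA strand of the 3′ untranslated region of each gene's canonical transcript. They were found in 5 of the 9 genes: *ADAMTS5* had 3 matches, *ADAMTS1* had 2, and *MMP2*, *TIMP3* and *PLAU* had 1 each. *MMP14*, *TIMP1*, *TIMP2* and *PLAUR* had none. Of all 18996 canonical 3′ untranslated regions, 33.7% held a match. The share depended on length: a match was held by 82.8% of regions within 20% of the 6131 bases of *ADAMTS5*. It was held by 42.7% of those near the 1824 bases of *ADAMTS1* and by 67.9% of those near the 3664 bases of *TIMP3*. The median number of matches in regions of like length was 2 for *ADAMTS5*, 0 for *ADAMTS1* and 1 for *TIMP3*. The matches of the 2 ADAMTS genes and of *TIMP3* are shown because the read ratios of these genes lay farthest from 1 in at least 1 replicate number. The capitals mark the match, between 10 bases on either side, on hg19. A match is a description of the sequence and not a binding site.
ADAMTS5, chr21:28292346-28292351, minus strand: ggtgaatattACTAATctctttataa
ADAMTS5, chr21:28291745-28291750, minus strand: attgcattctACTAATatagttgcac
ADAMTS5, chr21:28291684-28291689, minus strand: tgtggcttcaACTAACtggaccatgt
ADAMTS1, chr21:28209453-28209458, minus strand: actttacctcACTAACaatgggggga
ADAMTS1, chr21:28208367-28208372, minus strand: gtcatttgttACTAATgtatctaata
TIMP3, chr22:33255421-33255426, plus strand: tcccttggacACTAACtcttcccaga

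The libraries were divided by the authors by 20571555 and 34862008 reads in sh-QKI replicates 1 and 2, and by 20052951 and 34706058 reads in sh-Ctrl replicates 1 and 2, as recovered from the RPKM steps. *QKI* itself was at 2.52 and 3.85 RPKM in sh-QKI libraries, against 8.94 and 14.6 RPKM in sh-Ctrl libraries. Over the 11829 tested genes the SD of the log2 difference was 0.66 between the sh-QKI libraries and 0.81 between the sh-Ctrl libraries. Between sh-QKI and sh-Ctrl libraries of the same number it was 0.20 and 0.21. Values within each replicate number are therefore given throughout. The pooled log2 fold changes and standard errors of the genes followed come from a fit that leaves the replicate number out. These standard errors thus include the difference between the replicate numbers. Of 7 epithelial markers, *KRT8*, *KRT18* and *KRT7* had 169, 145 and 135 RPKM on average and *EPCAM* 0.743. *KRT19* had 0.427 RPKM, *CDH1*, which encodes E-cadherin, had 0.0907 RPKM, and *KRT5* was listed in no library. The summed epithelial markers were at 649 and 255 RPKM in sh-QKI replicates 1 and 2 and at 683 and 216 RPKM in sh-Ctrl replicates 1 and 2. *KRT7* ranged between 20.7 and 264 RPKM over the 4 libraries. Of other cell types, 2 of 7 fibroblast, 2 of 7 leukocyte, 0 of 6 endothelial, 0 of 4 basal and 0 of 6 ciliated or secretory markers reached a group mean of 0.5 RPKM. The summed fibroblast markers, mostly *COL1A1*, were at 61.5 and 41.3 RPKM in sh-QKI replicates 1 and 2 and at 58.6 and 29.0 RPKM in sh-Ctrl replicates 1 and 2. *DCN* was listed in no library. The summed leukocyte markers lay between 15.5 and 17.1 RPKM in sh-QKI libraries and between 18.1 and 21.4 RPKM in sh-Ctrl libraries, and *CD3E* was listed in none. The part of these markers in the results was not tested. In such bulk libraries fewer cells with an mRNA and less of it per cell cannot be told apart.

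*TIMP2* had the highest mean level of the 9 mRNAs and *ADAMTS5* the lowest. Over the 4 libraries the mean was 121 RPKM for *TIMP2*, 44.2 for *PLAU*, 37.2 for *TIMP1*, 36.3 for *MMP14*, 18.0 for *MMP2*, 13.3 for *PLAUR*, 9.87 for *ADAMTS1*, 1.35 for *TIMP3* and 0.690 for *ADAMTS5*. The range of *TIMP2*, between 112 and 127 RPKM, lay above that of *PLAU*, between 28.9 and 61.9 RPKM. From *PLAU* down to *ADAMTS1* the range of each gene overlapped that of the next. These ranges pool the replicate numbers, and within a library neighbors could lie far apart. *MMP2* was at 0.102 and 0.106 times *MMP14* in sh-QKI and sh-Ctrl replicate 1, against 0.891 and 1.21 times in sh-QKI and sh-Ctrl replicate 2. The ranges of *TIMP3* and *ADAMTS5* overlapped too, although *TIMP3* was the higher in each of the 4 libraries. The lowest *ADAMTS1* value, 2.34 RPKM, lay above the highest *TIMP3* value, 1.80 RPKM. The order also rests on the gene lengths behind RPKM. For *TIMP1* that length was 3547 bases, 4.61 times its canonical mRNA of 769 bases, whereas for *ADAMTS5* it was 9056 bases for an mRNA of 9621. With canonical mRNA lengths *TIMP1* came to 172 RPKM, behind *TIMP2* at 225 RPKM and ahead of *PLAU* at 111 RPKM. With these lengths the range of *TIMP1*, between 119.5 and 226 RPKM, overlapped that of *TIMP2*, between 207 and 236 RPKM. The lowest *ADAMTS1* value, 3.83 RPKM, then lay below the highest *TIMP3* value, 3.96 RPKM, whereas the range of *TIMP3* lay above that of *ADAMTS5*, which reached 1.09 RPKM. Ratios between libraries for 1 gene do not depend on that length.

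**Figure D1:**
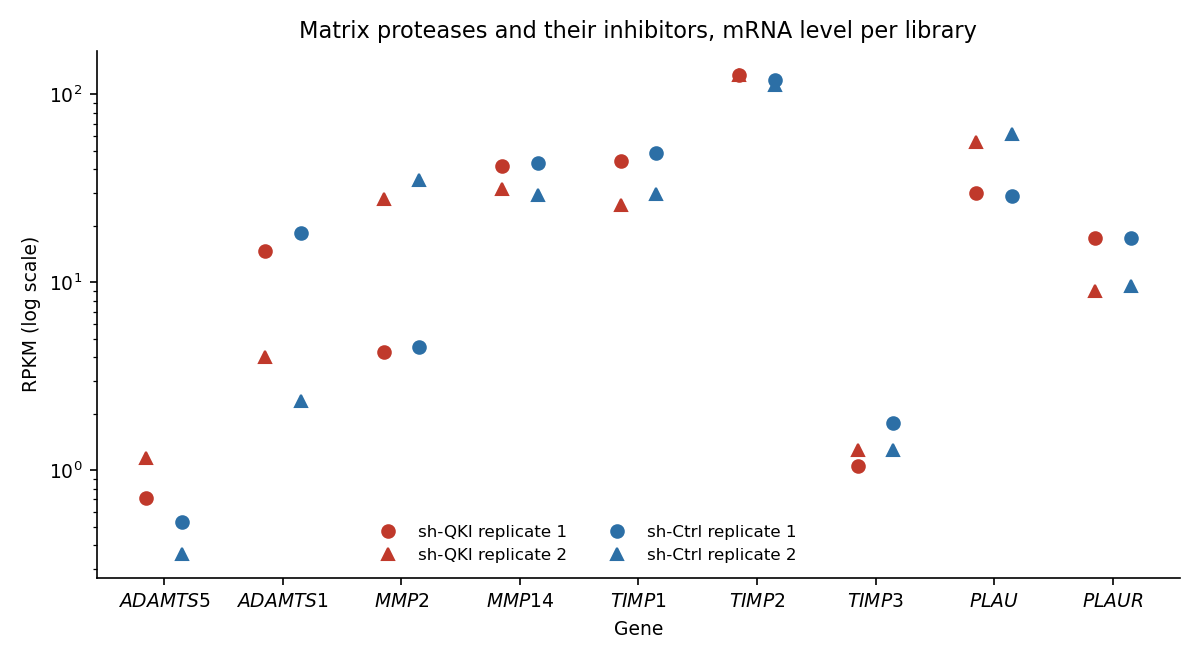
Levels of the 9 genes (x axis) as RPKM of each library (y axis, log scale), sh-QKI in red and sh-Ctrl in blue, with replicate 1 as circles and replicate 2 as triangles. *TIMP2* lies between 112 and 127 RPKM in all 4 libraries, *MMP2* and *ADAMTS1* split by replicate number, and both sh-QKI points of *ADAMTS5* lie above both sh-Ctrl points.

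*ADAMTS5* encodes an aggrecanase, an ADAMTS protease that cleaves the proteoglycan aggrecan in cartilage. The gene (ENSG00000154736) occupies positions 28290241 to 28339407 of chromosome 21 (hg19). The mRNA was at 0.709 and 1.16 RPKM in sh-QKI replicates 1 and 2, against 0.534 and 0.360 RPKM in sh-Ctrl replicates 1 and 2. Both sh-QKI libraries were higher than both sh-Ctrl libraries, and the higher sh-QKI value and the lower sh-Ctrl value both came from replicate 2. These values rest on 132 and 366 reads in sh-QKI libraries and on 97 and 113 reads in sh-Ctrl libraries. The group means were 0.934 ± 0.319 RPKM in sh-QKI cells and 0.447 ± 0.123 RPKM in sh-Ctrl cells (SD, n = 2 each), a ratio of 2.09. Of the 11955 genes with at least 0.5 RPKM in either group mean, 28 had over 2-fold higher means in sh-QKI cells, 0.234%. *ADAMTS5* entered this set only through the sh-QKI mean, and since it was chosen for these values, nothing is read from its place there.
The excess was unequal between the replicate numbers. Per total reads the sh-QKI library held 1.33 times the *ADAMTS5* reads of the sh-Ctrl library within replicate 1 (95% interval 1.01 to 1.74) and 3.22 times within replicate 2 (2.60 to 4.02). These exact intervals cover counting error only. On the log2(RPKM + 0.5) scale, which understates the change of a gene this low, the difference was 0.22 within replicate 1 and 0.95 within replicate 2, with a pooled log2 fold change of 0.59 (standard error 0.29). A difference at least as large was seen in 21.7% of the tested genes within replicate 1 and in 0.296% within replicate 2. Since *ADAMTS5* was chosen for its higher values in sh-QKI cells, nothing is read from these shares. Whether the replicate numbers differ was not tested.

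*ADAMTS1*, which encodes a related protease that cleaves aggrecan and versican, differed in opposite directions within the replicate numbers. The gene (ENSG00000154734) lies on chromosome 21 from 28208074 to 28217728, on the same strand as *ADAMTS5*, with 72512 bases and 0 annotated genes between them. Its mRNA was at 14.7 and 3.997 RPKM in sh-QKI replicates 1 and 2, against 18.4 and 2.34 RPKM in sh-Ctrl replicates 1 and 2. The sh-QKI library was thus lower than sh-Ctrl in replicate 1 and higher in replicate 2, and the groups overlap. The read ratio of sh-QKI to sh-Ctrl was 0.798 within replicate 1 (0.757 to 0.841) and 1.71 within replicate 2 (1.55 to 1.88), and both intervals exclude 1. The pooled log2 fold change was 0.17 (standard error 1.12, or 0.13 with the replicate number as a block), with -0.32 and 0.66 within the numbers. Opposite signs within the numbers were common, with 51.7% of the tested genes. The ratio of *ADAMTS1* to *ADAMTS5* in RPKM was 20.7 and 3.45 in the sh-QKI libraries, against 34.5 and 6.52 in the sh-Ctrl libraries. Its size rests on the lengths behind RPKM, 1.64 times the canonical mRNA for *ADAMTS1* and 0.94 times for *ADAMTS5*.

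*MMP2*, which encodes gelatinase A, a secreted protease of denatured collagens and of type IV collagen, set the libraries apart by number. The gene (ENSG00000087245) lies on chromosome 16 from 55423612 to 55540603. It was at 4.25 and 27.9 RPKM in sh-QKI replicates 1 and 2, against 4.55 and 35.2 RPKM in sh-Ctrl replicates 1 and 2. Replicate 2 was high in both groups, by 6.57-fold in sh-QKI and by 7.74-fold in sh-Ctrl cells. Within replicate 1 the read ratio of sh-QKI to sh-Ctrl was 0.933 (0.823 to 1.06), and within replicate 2 it was 0.792 (0.764 to 0.821). The pooled log2 fold change was -0.21 (standard error 1.31), with -0.09 and -0.33 within the numbers. With the replicate number as a block in the fit the standard error was 0.12.
*MMP14* encodes the membrane-anchored protease that activates the proform of MMP2 in a complex with TIMP2. The gene (ENSG00000157227) lies on chromosome 14 from 23305769 to 23318250. Its mRNA was at 41.8 and 31.3 RPKM in sh-QKI replicates 1 and 2, against 43.1 and 29.2 RPKM in sh-Ctrl replicates 1 and 2. The groups overlap almost entirely, and replicate 1 was the higher library in both. The read ratio was 0.970 (0.933 to 1.01) and 1.07 (1.04 to 1.11) within replicates 1 and 2. The pooled log2 fold change was 0.03 (standard error 0.34), and -0.01 with median centring of the libraries.
The balance between these 2 proteases differed between the replicate numbers far more than between the groups. *MMP2* mRNA was 0.102 and 0.891 times that of *MMP14* in RPKM in sh-QKI replicates 1 and 2, against 0.106 and 1.21 times in sh-Ctrl replicates 1 and 2.

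**Figure D2:**
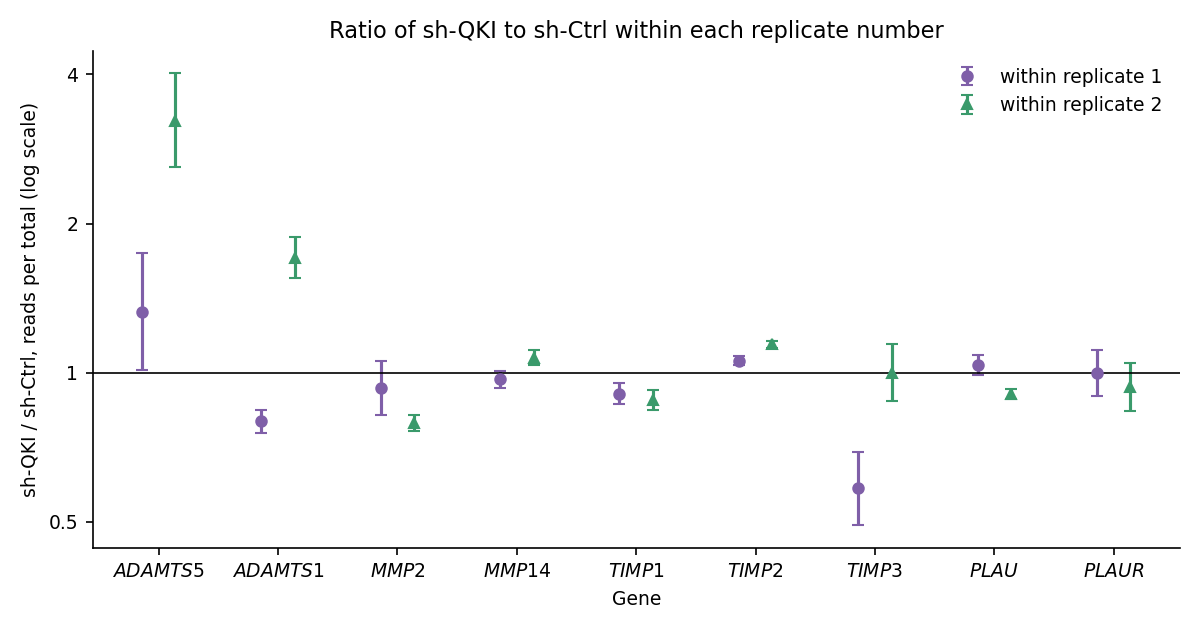
Reads per total in sh-QKI divided by those in sh-Ctrl (y axis, log scale) within replicate 1 (circles) and within replicate 2 (triangles) for the 9 genes (x axis), with exact 95% intervals for counting error. *ADAMTS5* is at 1.33 and 3.22, *ADAMTS1* at 0.798 and 1.71 on either side of 1, *TIMP3* at 0.585 and 1.00, and the other genes lie between 0.792 and 1.14.

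Among the inhibitors, *TIMP2* had the steadiest level and *TIMP3* a low one. *TIMP2* encodes an inhibitor that also serves as the link between MMP14 and the proform of MMP2. The gene (ENSG00000035862) lies on chromosome 17 from 76849059 to 76921469. It was at 127 and 127 RPKM in sh-QKI replicates 1 and 2, against 120 and 112 RPKM in sh-Ctrl replicates 1 and 2. Both sh-QKI libraries lay above both sh-Ctrl libraries, by a small margin. Read ratios of 1.06 (1.04 to 1.08) and 1.14 (1.12 to 1.16) were found within replicates 1 and 2, and the pooled log2 fold change was 0.13 (standard error 0.30). The annotation places *CEP295NL* within *TIMP2* on the same strand. It was at 8.33 and 3.06 RPKM in sh-QKI libraries and at 7.19 and 3.28 RPKM in sh-Ctrl libraries, and no source used here tells how reads of overlapping genes were assigned.
*TIMP1*, which encodes an inhibitor of most secreted MMPs, lies on chromosome X from 47441807 to 47446188 (ENSG00000102265). Its mRNA was at 44.4 and 25.9 RPKM in sh-QKI replicates 1 and 2, against 49.0 and 29.4 RPKM in sh-Ctrl replicates 1 and 2. Within each number the sh-QKI library was slightly lower, and replicate 1 was the higher library in both groups, so the groups overlap. The ratios were 0.907 (0.864 to 0.952) and 0.881 (0.840 to 0.924), and the log2 fold change was -0.16 (standard error 0.44). *TIMP1* lies within *SYN1* on the opposite strand. The library kit does not mark strand, so reads of the pair cannot be told apart, but *SYN1* had between 0.135 and 0.331 RPKM in sh-QKI libraries and between 0.152 and 0.156 RPKM in sh-Ctrl libraries.
*TIMP3* encodes the inhibitor that binds to the matrix and that, unlike the other TIMPs here, is known as a strong inhibitor of ADAMTS5. The gene (ENSG00000100234) lies on chromosome 22 from 33197691 to 33259028. It was at 1.05 and 1.28 RPKM in sh-QKI replicates 1 and 2, against 1.80 and 1.28 RPKM in sh-Ctrl replicates 1 and 2. The sh-QKI library was lower within replicate 1, while within replicate 2 the libraries were equal to 3 digits. The reads behind these values were 219 and 451 in sh-QKI libraries and 365 and 449 in sh-Ctrl libraries. The read ratio was 0.585 (0.492 to 0.693) within replicate 1 and 1.00 (0.876 to 1.14) within replicate 2. *SYN3*, which spans *TIMP3* on the opposite strand, had 3 reads in sh-Ctrl replicate 2 and was not listed in the other libraries.
Set side by side, *ADAMTS5* mRNA was 0.674 and 0.908 times that of *TIMP3* in RPKM in sh-QKI replicates 1 and 2, against 0.297 and 0.281 times in sh-Ctrl replicates 1 and 2. This ratio thus differed between the groups in the same direction within both numbers, and it holds the *ADAMTS5* values by which the genes were proposed. Its size rests on the lengths behind RPKM, 0.94 times the canonical mRNA for *ADAMTS5* and 2.20 times for *TIMP3*. It is therefore compared between libraries only and does not show that the mRNAs were near equal.

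*PLAU* and *PLAUR* were nearly level between sh-QKI and sh-Ctrl cells. *PLAU* (ENSG00000122861) lies on chromosome 10 from 75668935 to 75677254. Its mRNA was at 30.0 and 56.1 RPKM in sh-QKI replicates 1 and 2, against 28.9 and 61.9 RPKM in sh-Ctrl replicates 1 and 2. Replicate 2 was the higher library in both groups, and the groups overlap. The ratio was 1.04 (0.989 to 1.09) within replicate 1 and 0.906 (0.883 to 0.929) within replicate 2, with a log2 fold change of -0.04 (standard error 0.54). *C10orf55*, on the opposite strand within the same region, was at 2.75 and 3.34 RPKM in sh-QKI libraries and at 2.15 and 3.36 RPKM in sh-Ctrl libraries.
*PLAUR* (ENSG00000011422) lies on chromosome 19 from 44150247 to 44174699. It was at 17.3 and 8.99 RPKM in sh-QKI replicates 1 and 2, against 17.3 and 9.60 RPKM in sh-Ctrl replicates 1 and 2. Here replicate 1 was the higher library in both groups. The ratio was 0.999 (0.898 to 1.11) within replicate 1 and 0.937 (0.838 to 1.05) within replicate 2, and both intervals include 1. The log2 fold change was -0.05 (standard error 0.48).
Since *PLAU* was high and *PLAUR* low in replicate 2, the ratio of *PLAU* to *PLAUR* mRNA was 1.73 and 6.24 in sh-QKI replicates 1 and 2, against 1.67 and 6.45 in sh-Ctrl replicates 1 and 2. The size of this ratio rests on the lengths behind RPKM, 2.51 times the canonical mRNA for *PLAU* and 1.45 times for *PLAUR*.

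The replicate numbers differed over 2-fold in the same direction in both groups for 2 of the 9 genes, *MMP2* and *ADAMTS1*, and for 11.1% of the tested genes. For *MMP2* the log2 difference of replicate 2 from replicate 1 was 2.58 in sh-QKI and 2.82 in sh-Ctrl cells, and only 0.161% of the tested genes differed as much in either group. For *ADAMTS1* it was -1.76 in sh-QKI and -2.74 in sh-Ctrl cells, with 1.08% and 0.186% of the tested genes differing as much. *PLAU* differed by 0.89 and 1.09, *TIMP1* by -0.77 and -0.73, and *PLAUR* by -0.91 and -0.82 in sh-QKI and sh-Ctrl cells. The median size of this difference over the 9 genes was 0.77 in sh-QKI and 0.73 in sh-Ctrl cells, against 0.44 and 0.57 over all tested genes. *ADAMTS5* and *TIMP3* were the genes whose sign differed between the groups apart from *TIMP2*, which hardly differed. *ADAMTS5* was at 0.46 in sh-QKI and -0.27 in sh-Ctrl cells, and *TIMP3* at 0.20 and -0.37. Reads of 2 lengths were sequenced in separate runs, but no source ties a length to a number, so the part of the run in these differences was not tested.

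**Figure D3:**
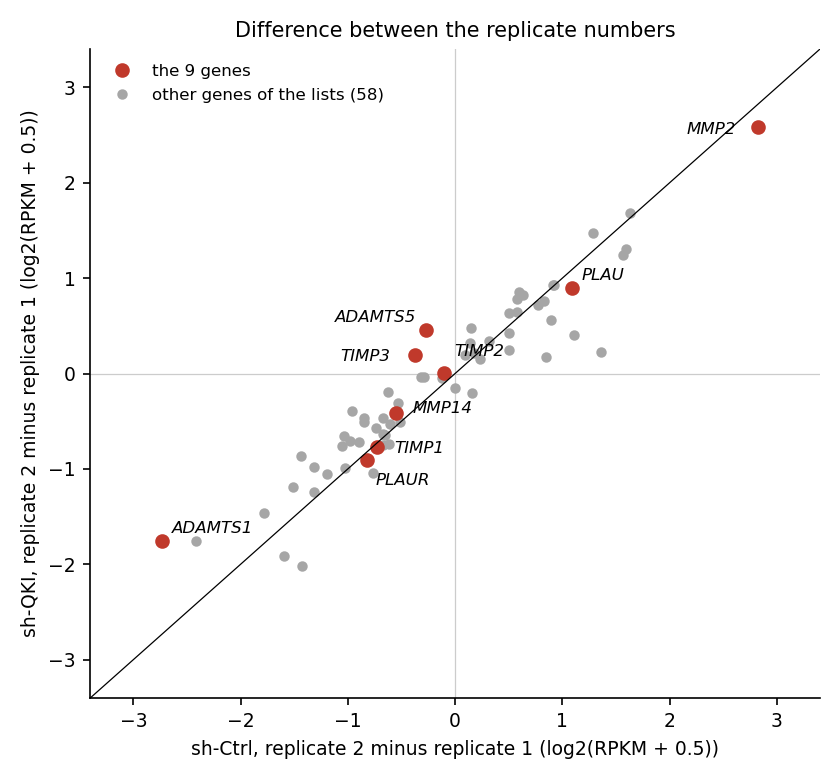
Difference of replicate 2 from replicate 1 on the log2(RPKM + 0.5) scale in sh-Ctrl cells (x axis) and in sh-QKI cells (y axis), with the 9 genes in red, the other 58 tested genes of the lists in gray and the diagonal as a line. *MMP2* lies at the upper end, at 2.82 and 2.58, *ADAMTS1* at the lower end, at -2.74 and -1.76, and *ADAMTS5* above the diagonal.

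Across all genes, limma on log2(RPKM + 0.5) called 0 of the 9 genes at an adjusted p under 0.05, and 0% of the 11829 tested genes. At an unadjusted p under 0.05 it had 0 of the 9 and 13 of all genes, and voom, run on reads recovered from RPKM, gave 0 calls too. *QKI* itself was not called either, at a log2 fold change of -1.72 (standard error 0.38), so 0 calls do not show unchanged levels. With the replicate number as a block *QKI* was called. Blocking on the replicate number gave limma 0.854% of all tested genes, 0.49% higher and 0.364% lower in sh-QKI cells. Of the 9 genes 1, *ADAMTS5*, was among those higher and 0 among those lower. Voom with the block called *ADAMTS5* as well, beside 1.16% of all genes, 0.583% higher and 0.575% lower. The block with median centring called 0 of the 9, beside 0.964% of all genes, 0.406% higher and 0.558% lower. Since the genes were proposed from this comparison, nothing is read from these counts. Within both numbers sh-QKI was higher for 2 of the 9 genes, as for 31.7% of the tested genes, and lower for 4, as for 16.6%. Of these 4, *TIMP3* within replicate 2 and *PLAUR* within replicate 1 were level, with read ratios of 1.00 and 0.999. Both sh-QKI libraries lay above both sh-Ctrl libraries for 2 of the 9 genes, *ADAMTS5* and *TIMP2*, as for 5.71% of the tested genes, and below for 1, *TIMP3*, as for 2.89%, where the replicate 2 libraries of *TIMP3* are a tie to 3 digits. The median log2 fold change of the 9 genes was -0.04, with 4 above 0 and 5 below 0, against 0.03 over all tested genes.

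The wider families were taken whole as lists and not gene by gene for how they moved, and only the genes in the tables that reached 0.5 RPKM were tested. The lists were chosen with earlier results of these data known, so the counts, calls and p-values of their genes are descriptions. Of 19 ADAMTS protease genes, 16 were listed and 10 tested. Of these 10, 8 had a log2 fold change above 0, with a median of 0.16, whereas 7334 of all 11829 tested genes were above 0, with a median of 0.03. *ADAMTS5*, chosen for its higher values in sh-QKI cells, is among these 8 and has the highest, 0.59. It reached the limit only through the sh-QKI libraries, with group means of 0.934 RPKM in sh-QKI and 0.447 RPKM in sh-Ctrl cells. Nothing is therefore read from the count and median. Within both numbers 5 of the 10 were higher in sh-QKI and 1 lower, as for 31.7% and 16.6% of the tested genes. The ADAMTS median lay between 0.03 and 0.15 with 1 library left out. Beside *ADAMTS5*, *ADAMTS12*, a protease gene expressed here at 6.90 and 13.6 RPKM in sh-QKI libraries and at 4.95 and 9.83 RPKM in sh-Ctrl libraries, had 0.44 and 0.45 within the numbers. It was not called by limma with the block, and was called by voom with the block. *ADAMTS15*, which encodes another aggrecanase, was at 4.75 and 6.82 RPKM in sh-QKI libraries and at 4.69 and 5.25 RPKM in sh-Ctrl libraries. Limma without a block called 0 of the 10 ADAMTS genes.
Of 23 MMP genes, 17 were listed and 10 tested, with a median of 0.12 and 7 above 0. *MMP24*, which encodes a membrane-type metalloprotease known from neurons, rose in the fit with the block. It was at 17.6 and 15.3 RPKM in sh-QKI replicates 1 and 2, against 14.5 and 9.22 RPKM in sh-Ctrl replicates 1 and 2, and the groups do not overlap. Its log2 fold change was 0.49 (standard error 0.12 with the block, limma adjusted p = 0.0105), with 0.27 and 0.70 within the numbers, and without a block its limma adjusted p was 1.00. *MMP3*, the gene of stromelysin 1, was at 0.901 and 0.181 RPKM in sh-QKI libraries and at 1.24 and 0.521 RPKM in sh-Ctrl libraries and was not called in either fit.
Of 6 metalloprotease inhibitor genes all were listed and 4 tested, with a median of -0.15. *RECK*, which encodes a membrane-anchored inhibitor of MMPs, was at 2.11 and 4.45 RPKM in sh-QKI libraries and at 2.37 and 4.91 RPKM in sh-Ctrl libraries, and *TIMP4* was under the limit.
Of 13 plasminogen activator genes, 11 were listed and 9 tested, with a median of -0.07 and 8 below 0. Of all 11829 tested genes 4495 were below 0. Within both numbers only 4 of the 9 tested plasminogen activator genes were lower in sh-QKI and 0 higher, as for 16.6% and 31.7% of all tested genes. The others, *PLAU* among them, went opposite ways in the replicate numbers. None was called in either limma fit. *PLAT*, which encodes tissue plasminogen activator, had the lowest value, -0.17, with 13.4 and 17.1 RPKM in sh-QKI libraries and 15.3 and 19.1 RPKM in sh-Ctrl libraries. *ANXA2* and *S100A10*, which encode a cell surface complex that binds plasminogen, had log2 fold changes of -0.16 and -0.08.

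**Figure D4:**
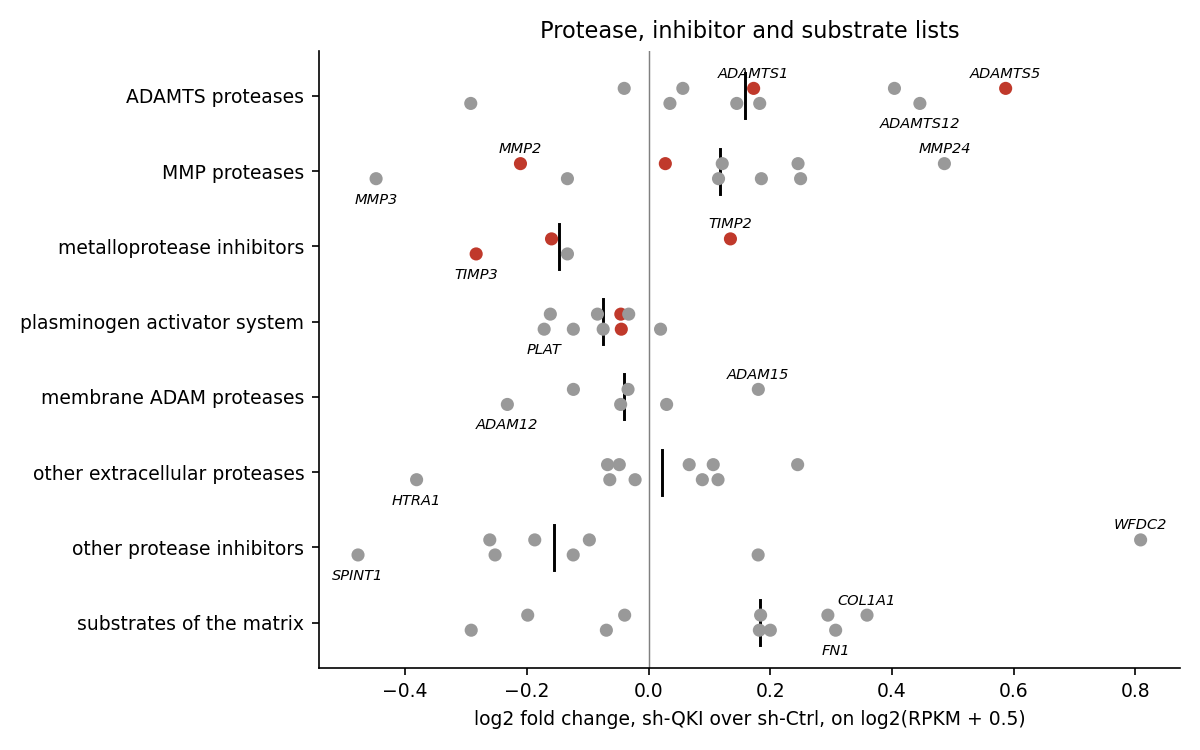
log2 fold change of sh-QKI over sh-Ctrl (x axis, log2(RPKM + 0.5) scale) for the tested genes of 8 lists (y axis), with the 9 genes in red, other genes in gray and the median of each list as a black bar. *ADAMTS5* at 0.59 and *WFDC2* at 0.81 lie farthest to the right, and the medians lie between -0.16 and 0.18.

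Among genes around these families, 6 of 12 membrane ADAM protease genes were tested, with a median of -0.04 and no call. *ADAM9*, *ADAM10* and *ADAM15* had log2 fold changes of -0.05, -0.03 and 0.18, and *ADAM12* one of -0.23. Of 19 other extracellular or lysosomal protease genes 10 were tested, with a median of 0.02, and limma without a block and with the block alone called none. *HTRA1*, which encodes a secreted serine protease, had -0.02 and -0.74 within the numbers, and with the block and median centring it was called. The cathepsin genes *CTSB*, *CTSD* and *CTSL1* had log2 fold changes of -0.05, 0.25 and 0.11. Of 12 other protease inhibitor genes 8 were tested, with a median of -0.16. *WFDC2*, which encodes a secreted protein of the WAP domain family, rose in the fit with the block. It was at 2.53 and 6.65 RPKM in sh-QKI replicates 1 and 2, against 1.04 and 4.08 RPKM in sh-Ctrl replicates 1 and 2, a log2 fold change of 0.81 (limma adjusted p = 1.49e-05 with the block and 1.00 without), with 0.97 and 0.64 within the numbers. *SPINT1*, the gene of an inhibitor of hepatocyte growth factor activator, had -0.67 and -0.28 and was called with the block and median centring only. *SERPINH1*, *CST3* and *CSTB* had log2 fold changes of 0.18, -0.12 and -0.19.
Of 18 genes of matrix substrates 10 were tested, with a median of 0.18, and none was called. *FN1*, which encodes fibronectin, had 0.30 and 0.31 within the numbers, *COL1A1* had 0.07 and 0.65, and *SPARC* and *THBS1* had log2 fold changes of 0.18 and -0.07. The aggrecan gene *ACAN* and the versican gene *VCAN*, whose products are cleaved by ADAMTS5 and ADAMTS1, were under the limit. *ACAN* reached up to 0.00744 RPKM in any library. *VCAN* was at 0.0035 and 0.042 RPKM in sh-QKI replicates 1 and 2, from 2 and 41 reads, against 0.135 and 0.138 RPKM in sh-Ctrl replicates 1 and 2, from 76 and 135 reads. Both sh-QKI libraries were lower, as for 2.89% of the tested genes, which do not include *VCAN*. The read ratios were 0.0257 (0.00305 to 0.0959) within replicate 1 and 0.302 (0.208 to 0.432) within replicate 2, with intervals for counting error only. At this level the gene was not tested, and it was named after its values were seen, so nothing is read from them. Leaving out the 9 genes, the 58 other tested genes of the lists had a median log2 fold change of -0.03. Limma with the block called 2 of them, *MMP24* and *WFDC2*, both higher, beside 0.854% of all tested genes. Since the lists were chosen with earlier results known, nothing is read from this count.

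The genes whose centred log2(RPKM + 0.5) profile over the 4 libraries was nearest to that of *ADAMTS5*, by Euclidean distance, were *CADM4*, *GOLGA7B*, *RBP7*, *HAPLN3* and *AIF1L*, at distances between 0.15 and 0.31. *CADM4*, which encodes a cell adhesion molecule, was at 15.0 and 20.1 RPKM in sh-QKI replicates 1 and 2, against 11.1 and 9.51 RPKM in sh-Ctrl replicates 1 and 2. *HAPLN3*, a gene of the hyaluronan and proteoglycan link protein family, was at 2.58 and 4.04 RPKM in sh-QKI replicates 1 and 2, against 2.49 and 2.33 RPKM in sh-Ctrl replicates 1 and 2. As in *ADAMTS5*, sh-QKI replicate 2 was the highest library in both genes and sh-Ctrl replicate 2 the lowest. In *RBP7* the lowest was sh-Ctrl replicate 1, at 1.53 RPKM against 1.62 RPKM in sh-Ctrl replicate 2. Since the genes were picked for the likeness of their profiles, nothing is read from this order. The likeness rests on 4 libraries and is a description.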

How the data were processed

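mRNA from 2 sh-QKI and 2 sh-Ctrl libraries of BEAS2B cells was sequenced from a single end on an Illumina GAII, from TruSeq RNA libraries. For splicing the authors aligned reads to hg19 and Ensembl junctions with Bowtie, leaving out ambiguous alignments. They deposited RPKM values per gene and library. No source used here names the counting tool. Genes missing from a table were set to 0 RPKM, and the files held 0 columns of other samples. 
Low values were whole multiples of 1 read: 100% of values came out whole at a tolerance of 1e-11, which gave library totals and gene lengths. The reads summed over genes, between 30740875 and 48091243, exceeded these totals, and the reason was not tested; the intervals take each read as independent. The recovered reads were used for read ratios, their exact 95% binomial intervals, which cover counting error only, and for voom.
The 11829 genes whose mean over the 4 libraries reached 0.5 RPKM were fitted on log2(RPKM + 0.5) with limma 3.58.1 (R 4.3.3), with a mean-variance trend, no block, two-sided, and a Benjamini-Hochberg adjusted p under 0.05. Alternatives were the replicate number as a block, other pseudocounts and minimums, median centring, leaving out each library, values within 1 number, and voom on reads. Summaries used Python 3.11.15, pandas 2.3.3 and scipy 1.17.1. Positions and 3′ untranslated regions came from GENCODE on hg19.
Text names the 9 genes, QKI, genes that overlap the 9, the 5 genes nearest to ADAMTS5, and from each list the 3 most abundant and the 2 with the largest log2 fold change, beside any called without or with the block. The aggrecan and versican genes and TIMP4 were named outside this rule, after their values were seen. The 9 genes and all lists were chosen with earlier results of these data known. Some results that the rule would name are not reported here.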

Additional observations from a re-analysis of the deposited data

How the results depend on the processing

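The number of genes called was 0 in limma without a block. With the replicate number as a block it was 101, with the block and median centring 114, and with voom and the block 137. Of the 9 genes, 0 were called without the block, and 1, *ADAMTS5*, was called with the block and with voom and the block, at log2 fold changes of 0.59 and 1.14. The block with median centring called 0 of the 9, with *ADAMTS5* at a log2 fold change of 0.55. Of the 58 other tested genes of the lists, 0 were called without the block, 2 with it, 4 with the block and median centring, and 3 with voom and the block. Same-numbered libraries deviated together (Pearson r = 0.95 across genes, which are not independent), but with 2 numbers the sources do not show that they are pairs.
Leaving out 1 library at a time gave between 0 and 3 calls over all genes, and 0 to 0 among the 9 and among the 58, where the lone library of a group is assumed to vary like the others. The log2 fold change then ranged between -1.19 and 1.54 for *ADAMTS1*, -1.62 and 1.201 for *MMP2*, -0.25 and 0.30 for *MMP14*, -0.54 and 0.22 for *TIMP1*, -0.59 and 0.50 for *PLAU*, and -0.50 and 0.41 for *PLAUR*, so each changed sign. It kept its sign for *ADAMTS5* (0.36 to 0.82), *TIMP2* (0.08 to 0.18) and *TIMP3* (-0.47 to -0.10). The groups of these genes do not overlap, so leaving out 1 library could not change their sign, and nothing is read from it. Leaving out 1 library also leaves the replicate numbers unequal between the groups, which moves genes such as *MMP2* that differ between the numbers.
Within replicate 1 alone the sign was reversed for *ADAMTS1* (-0.32), *MMP14* (-0.043) and *PLAU* (0.052), and median centring, without or with the block, reversed *MMP14* (-0.0066). The cause was not tested. With a minimum of 1 RPKM *ADAMTS5* could not be tested. The list medians moved in 33 of 104 alternatives by more than the spread between their values within replicates 1 and 2. Of these alternatives 11 were among the 72 that left out no library. This spread is not that over the genes of a list. With 1 library left out they ranged between -0.13 and 0.36 for MMPs, -0.34 and 0.52 for matrix substrates, and -0.09 and 0.03 for the plasminogen activator genes. The canonical mRNA length was chosen after seeing the data. Depth limits *ADAMTS5* most, with 97 reads in its smallest library.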
